A study of Mus musculus with 6 samples.

Results

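The aminoacyl-tRNA synthetases and the ATF4 stress-response genes were examined in LSKs, bone marrow cells sorted as lacking lineage markers and carrying Sca-1 and c-Kit, among which are the hematopoietic stem and progenitor cells. Members were chosen by gene symbol from the protein-coding genes of the deposited table: symbols of the synthetase families, plus Atf4 and 12 genes that ATF4 is known to act on. This gave 51 of the 55487 rows of the table, with 50 distinct symbols: 20 rows for cytosolic synthetases, 17 for mitochondrial synthetases and 14 for ATF4 and its targets. Of the 51 rows, 50 passed the filter on low counts and were tested. The other row is a 105-base gene model that also carries the symbol Ddit3 and held 1 or 2 counts per library.

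RNA sequencing compared 3 libraries from Tespa1+/+ (wild-type littermate) mice with 3 from Tespa1-/- mice, a whole-body knockout bred onto C57BL/6. Per the methods of the study, the mice were male, 8 to 10 weeks old, and received 5 Gy of total body irradiation, and LSKs were collected at day 13. All 6 libraries therefore carry the irradiation, and no unirradiated library was compared here. Whether a library came from 1 mouse or a pool is not given in the sources used here, so p-values measure the spread between these libraries.

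The synthetases attach each amino acid to its tRNA. When a charged tRNA runs short, or under other stresses, kinases phosphorylate the initiation factor eIF2alpha, general translation slows, and the mRNA of the transcription factor ATF4 is translated more. ATF4 then raises genes for amino acid synthesis, uptake and tRNA charging, among them many cytosolic synthetases. Because ATF4 is controlled largely at translation, its mRNA level and its activity need not move together.

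The total count was between 12856630 and 30576981 per library. For Tespa1, the counts were 533 to 1033 in Tespa1+/+ and 176 to 261 in Tespa1-/- libraries (log2 -1.23, SE 0.07, adjusted p = 7.0e-06 by edgeR), so the groups did not overlap and reads on the gene remained in the knockout. Fold changes over all genes followed gene length: among genes with a mean above 8 CPM (counts scaled to a common library total), the shortest decile had a median log2 fold change of 0.64 (median union exon length 685 bases) and the longest decile one of -0.56 (median 12404 bases). The main counts of calls, and the values of many members, are therefore given also with a length correction, in which this trend was removed library by library. Of the LSK markers, 6 of 7 fell (summed level 1217 to 1258 CPM in Tespa1+/+, 711 to 732 CPM in Tespa1-/-), Kit and Cd34 among them. Of 12 neutrophil markers, 11 were tested and 10 rose (52.3 to 53.7 CPM against 513 to 539.8 CPM), and the defining marker Ly6g had no count in any Tespa1+/+ library. The other tested marker was not called, at a log2 fold change of -0.57 with every Tespa1-/- library below every Tespa1+/+ library. Monocyte markers summed to 639 to 669.6 CPM against 756 to 827 CPM, with 1 of 6 higher and 3 lower, and plasma cell markers to 54.8 to 77.4 CPM against 99.4 to 107 CPM, with 1 of 5 tested higher (Jchain) and 3 lower. Erythroid markers summed to 43.1 to 46.3 CPM against 55 to 59.2 CPM, with 4 of 7 tested higher and 3 lower, B cell markers to 54.7 to 60 CPM against 40.6 to 43.9 CPM, with 1 of 7 tested higher and 5 lower, and T cell markers to at most 4.62 CPM, with both tested genes lower. Over all 15332 genes tested, 31.5% were higher and 31.8% lower at an adjusted p of edgeR under 0.05. The length trend and these markers moved with genotype beside every result below, and the part of the markers was not tested. In these bulk libraries, fewer cells of a type and less RNA per cell cannot be told apart.

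ATF4 binds together with C/EBP proteins at the C/EBP-ATF response element. Its core, TGATGNAA, was searched on both strands (TTNCATCA on the other strand) in RefSeq promoter windows of GRCm38.p6 that run from 250 bases before to 50 bases after a start site. A window was found by symbol for 39 of the 50 member symbols. The other 11 were not searched, among them Cars and Nars, the cytosolic synthetases with the highest fold changes. Of the 39, 9 held the motif. These were 4 of 12 genes of the ATF4 group, 5 of 13 cytosolic synthetases and 0 of 14 mitochondrial synthetases. Over all genes with a window, 4.51% held the motif (1219 of 27025), and over the genes tested that had a window 2.72% did. The ATF4 group was chosen as genes that ATF4 is known to act on, so its share was in part set by that choice. The genes with the motif include the members with the highest fold changes, Trib3, Asns and Chac1, and also the cytosolic synthetase that fell. Mthfd2 and Psph, next in order at log2 fold changes of 1.18 and 1.07, were searched and did not hold it. The 30 bases around matches in the genes with the motif are shown, with the motif in capitals, read in the direction of the gene.
Trib3, chr2:152344028-152344057, minus strand, starting at base 15 after the start site: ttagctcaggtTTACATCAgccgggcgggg
Asns, chr6:7693214-7693243, minus strand, 23 bases upstream: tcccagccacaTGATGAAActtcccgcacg
Chac1, chr2:119351038-119351067, plus strand, 193 bases upstream: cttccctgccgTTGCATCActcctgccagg
Pycr1, chr11:120643833-120643862, minus strand, 103 bases upstream: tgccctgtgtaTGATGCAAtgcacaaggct
Aars, chr8:111033840-111033869, plus strand, starting at base 10: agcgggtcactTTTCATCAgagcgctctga
Gars, chr6:55037960-55037989, plus strand, 30 bases upstream: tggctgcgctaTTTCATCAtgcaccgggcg
Tars, chr15:11399655-11399684, minus strand, 15 bases upstream: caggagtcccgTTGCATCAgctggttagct
Yars, chr4:129189895-129189924, plus strand, starting at base 4: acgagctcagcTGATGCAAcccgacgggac
Iars, chr13:49682126-49682155, plus strand, starting at base 8: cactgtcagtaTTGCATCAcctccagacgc

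Of the 9 genes, 6 held the form TGATGCAA, among them Chac1, Pycr1, Tars, Yars and Iars, which 1.03% of all genes with a window held. In the GENCODE M21 annotation the motifs shown for Chac1, Pycr1, Gars and Tars, and that of Trib3, lie outside annotated exons, those of Asns, Aars and Iars lie in the 5′ UTR, and that of Yars spans the end of a 5′ UTR and the start of a coding sequence. For Chac1 and Pycr1 the motif could be shown with the longer stretch before the start of the gene in both annotations, again with the motif in capitals.
Chac1, chr2:119350992-119351228, plus strand: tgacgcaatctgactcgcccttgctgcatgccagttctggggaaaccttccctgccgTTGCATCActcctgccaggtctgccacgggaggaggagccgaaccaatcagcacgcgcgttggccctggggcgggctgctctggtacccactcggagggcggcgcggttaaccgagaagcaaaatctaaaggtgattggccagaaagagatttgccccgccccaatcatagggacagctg
Pycr1, chr11:120643770-120643998, minus strand: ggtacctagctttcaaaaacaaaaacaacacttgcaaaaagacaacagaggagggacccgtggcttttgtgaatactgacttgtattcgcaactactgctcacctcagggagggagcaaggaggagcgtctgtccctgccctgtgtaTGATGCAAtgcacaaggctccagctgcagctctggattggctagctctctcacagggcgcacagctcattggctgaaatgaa

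To determine whether these genes differed by genotype, levels in Tespa1-/- were compared with Tespa1+/+ LSKs, and a gene is said to have risen or fallen where the adjusted p of edgeR was under 0.05. All 13 tested genes of the ATF4 group rose, 17 of 20 cytosolic synthetases rose and 1 fell, and 6 of 17 mitochondrial synthetases rose and 2 fell. Of all 15332 genes tested, 31.5% rose and 31.8% fell at this threshold. With a fold over 1.5 as well, 6 genes of the ATF4 group, 5 cytosolic and 0 mitochondrial synthetases rose and none of the members fell, where 14.0% of all genes rose and 19.2% fell. Median log2 fold changes were 0.57 in the ATF4 group, 0.43 in the cytosolic and 0.12 in the mitochondrial synthetases, against 0 over all genes tested. The groups did not overlap, with Tespa1-/- higher, for 37 of the 50 members, and with Tespa1-/- lower for 3, against 34.5% and 34.6% of all genes.

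**Figure D1:**
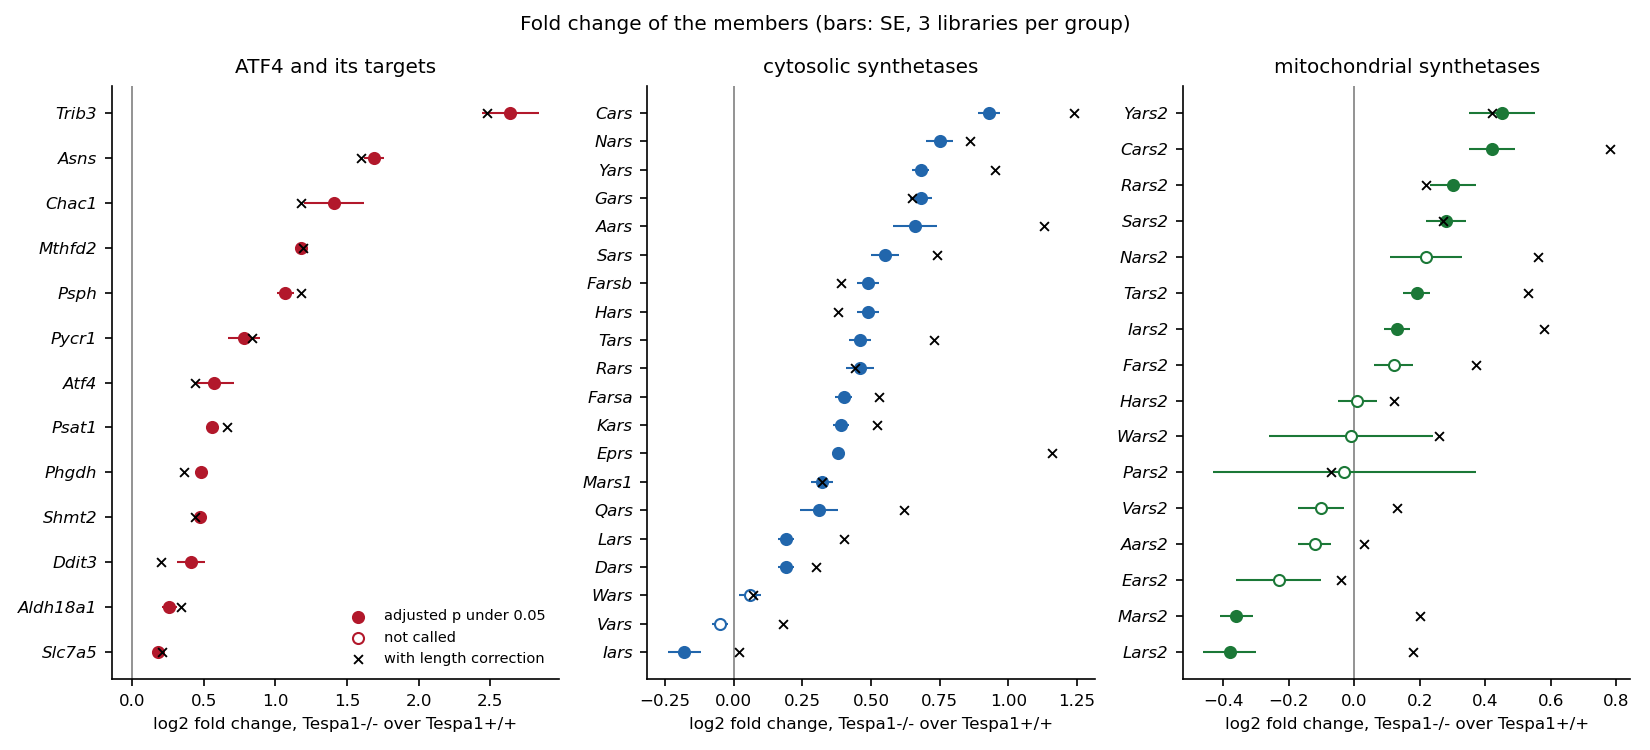
Log2 fold change of the tested members, 1 mitochondrial synthetase left out, in Tespa1-/- over Tespa1+/+ LSKs (x axis), with 1 panel per group of genes. Filled points passed an adjusted p of 0.05, open points did not, bars are the SE, and crosses are the values with the length correction; Trib3 leads the ATF4 group at 2.64, Cars the cytosolic synthetases at 0.93 and Yars2 the mitochondrial synthetases at 0.45.

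Once corrected for length, the counts were 12 of 13 higher in the ATF4 group, 18 of 20 in the cytosolic and 10 of 17 in the mitochondrial synthetases, with 0 lower in each, where 34.1% of all genes were higher and 24.0% lower. The corrected medians were 0.66, 0.52 and 0.26, against 0.07 over all genes. In the ATF4 group the call that was lost was that of Ddit3, and none of the 3 falls stood with the correction. The plot of fold change by length shows where the members lay: several cytosolic synthetases were long genes with a positive fold change, above the median for their length.

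**Figure D2:**
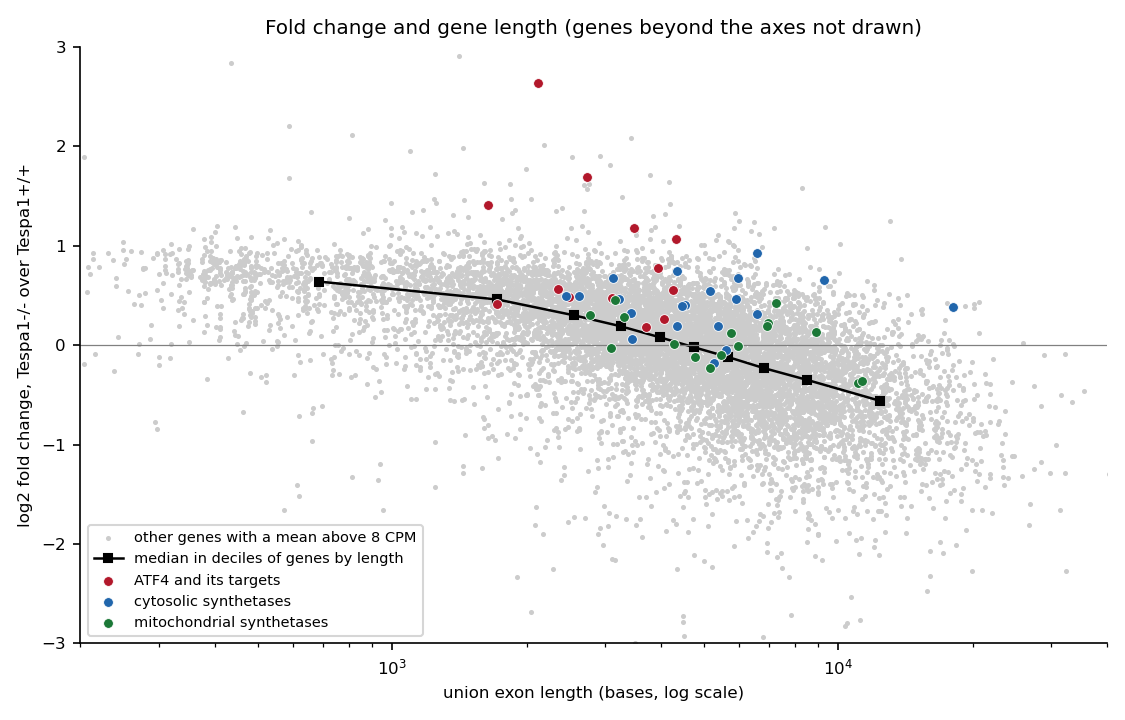
Log2 fold change (y axis) against union exon length in bases (x axis, log scale) for genes with a mean above 8 CPM (grey) and for the members (coloured by group), with the median in each decile of genes by length (black squares). The median falls from 0.64 to -0.56 from the shortest to the longest decile, and most members lie above it.

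Atf4 itself (chromosome 15, 80255184 to 80257541) rose 1.49-fold. Its level was 279, 207 and 262 CPM in the Tespa1+/+ libraries and 403, 405 and 302 CPM in the Tespa1-/- libraries. The groups did not overlap, but the lowest Tespa1-/- library, replicate 3, stood closer to the highest Tespa1+/+ library than to the other Tespa1-/- libraries. The log2 fold change was 0.57 ± 0.14 (SE, adjusted p = 0.0107) and 0.44 ± 0.15 with the length correction (adjusted p = 0.0335). Tested on log2(FPKM + 1) by limma-trend without a filter, Atf4 lost its call (0.46, adjusted p = 0.0804).

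The highest fold changes in the group were those of the stress-signalling gene Trib3 and of Asns and Chac1. Trib3 (chromosome 2, 152337422 to 152344032) encodes a pseudokinase that restrains ATF4 signalling, and it was at 0.771, 1.05 and 1.35 CPM in Tespa1+/+ and at 6.87, 6.96 and 5.65 CPM in Tespa1-/- libraries. Every Tespa1-/- library was thus above every Tespa1+/+ library, on counts of 14 to 33 against 70 to 117, and the log2 fold change was 2.64 ± 0.20 (adjusted p = 2.7e-05). Asns (chromosome 6, 7675169 to 7693254), which makes asparagine from aspartate, was at 22.6, 20.3 and 20.6 CPM against 70.6, 63.2 and 70.2 CPM, a 3.22-fold rise (log2 1.69 ± 0.07, adjusted p = 2.4e-06). Chac1 (chromosome 2, 119351229 to 119354381), which degrades glutathione, was a low gene with counts of 27, 32 and 16 against 52, 53 and 33. Its levels of 1.49, 1.01 and 1.08 CPM against 3.05, 3.65 and 2.66 CPM did not overlap, and its log2 fold change was 1.41 ± 0.21 (adjusted p = 9.0e-04). Corrected for length, these 3 genes stood at 2.48, 1.60 and 1.18.

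Ddit3 (chromosome 10, 127290774 to 127296288), which encodes the pro-apoptotic factor CHOP, rose less. It was at 21.1, 22.6 and 17.6 CPM in Tespa1+/+ and at 25.7, 28.7 and 27.7 CPM in Tespa1-/- libraries, a log2 fold change of 0.41 ± 0.10 (adjusted p = 0.00946). The groups did not overlap, but the call was lost with the length correction (0.20 ± 0.10, adjusted p = 0.144). With the correction on the longest coding transcript, Ddit3 was at 0.04 (adjusted p = 0.756). Of its 1713 exon bases, 68 are shared with Mars1 on the opposite strand and 105 with the short second Ddit3 model on the same strand.

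The genes of serine synthesis rose together, 3 of 3, where 31.5% of all genes tested rose. Phgdh, which diverts a glycolytic intermediate into the pathway, was at 282, 296 and 295 CPM against 407, 409 and 397 CPM (log2 fold change 0.48 ± 0.03, adjusted p = 1.4e-05). Psat1, the transaminase of the next step, was at 166, 159 and 166 CPM against 233, 249 and 244 CPM (0.56 ± 0.04, adjusted p = 1.5e-05). For Psph, the phosphatase that releases serine, the levels were 21, 20.6 and 22 CPM against 46, 45.5 and 41.7 CPM, and its 2.10-fold rise was the highest of the pathway (log2 1.07 ± 0.06, adjusted p = 9.0e-06). In none of the 3 genes did the groups overlap, and the length-corrected values were 0.36, 0.66 and 1.18. Of the 4329 exon bases of Psph, 452 are shared with a non-coding transcript of Cct6a on the other strand.

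The mitochondrial folate genes that use serine as carbon donor also rose. Mthfd2 (chromosome 6, 83305691 to 83325908), a dehydrogenase and cyclohydrolase, was at 46.1, 46 and 46.8 CPM in Tespa1+/+ and at 103, 109 and 103 CPM in Tespa1-/- libraries. That is a 2.26-fold rise with little spread in either group (log2 1.18 ± 0.04, adjusted p = 1.5e-06, length-corrected 1.19). Shmt2, which splits serine into glycine and a carbon unit, stood at 304, 316 and 311 CPM against 437, 429 and 425 CPM (0.47 ± 0.03, adjusted p = 8.2e-06).

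The proline genes and the transporter rose as well. Pycr1, the last enzyme of proline synthesis, was at 6.66, 5.45 and 6.07 CPM against 10.1, 10.8 and 10.2 CPM (log2 fold change 0.78 ± 0.11, adjusted p = 5.3e-04). Aldh18a1, which starts the same pathway, stood at 99.9, 112 and 110.2 CPM against 127, 131 and 127 CPM (0.26 ± 0.05, adjusted p = 0.00323). Slc7a5, which takes up large neutral amino acids, was at 275, 290.3 and 284 CPM against 319.7, 317 and 323 CPM, and its 0.18 ± 0.03 was the lowest fold change of the group (adjusted p = 0.00157). Without any scaling factor Slc7a5 lost its call (0.08, adjusted p = 0.0556). The groups did not overlap for any of the 3.

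**Figure D3:**
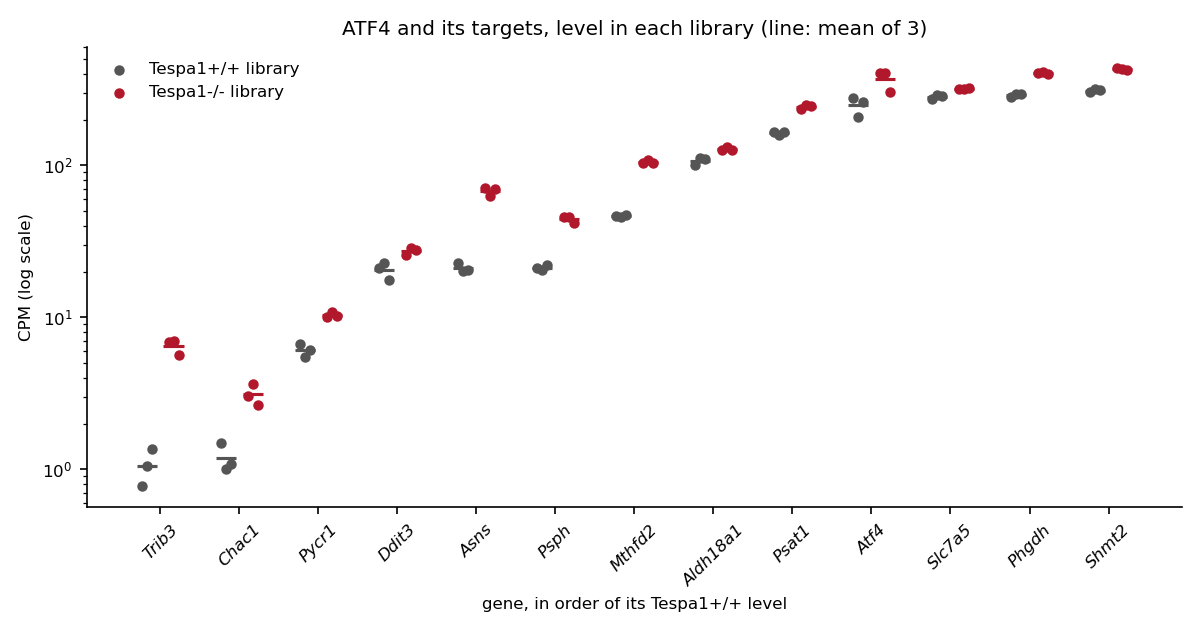
Level in CPM (y axis, log scale) of Atf4 and its 12 targets in each library, with genes ordered by their Tespa1+/+ level (x axis). Points are single libraries, lines are means of 3, and in each of the 13 genes every Tespa1-/- library lies above every Tespa1+/+ library; the spread is widest for Atf4 among the abundant genes, where replicate 2 of Tespa1+/+ (207 CPM) and replicate 3 of Tespa1-/- (302 CPM) lie low.

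The cytosolic synthetases rose as a group in level. Their summed level was 3409, 3453 and 3460 CPM in the Tespa1+/+ and 4470, 4380 and 4454 CPM in the Tespa1-/- libraries, a ratio of 1.29. Log2 fold changes ran from -0.18 to 0.93. Per kilobase of the longest coding transcript, Tespa1+/+ levels ran from 13.6 ± 0.447 CPM per kilobase for Cars to 134 ± 2.24 for Kars and 125 ± 4.13 for Vars (SD, n = 3). By this measure Cars had the lowest level, and it also had the highest fold change. The order of levels was not compared with the order of changes over the whole group.

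Cars (chromosome 7, 143557230 to 143600090), which charges cysteine, was at 42.3, 44.7 and 44.9 CPM in Tespa1+/+ and at 85.7, 82.8 and 82.5 CPM in Tespa1-/- libraries, a 1.90-fold rise (log2 0.93 ± 0.04, adjusted p = 3.8e-06). Nars, for asparagine, stood at 203, 184 and 205 CPM against 345, 314 and 337 CPM (0.75 ± 0.05, adjusted p = 2.4e-05). The groups lay well apart in both genes, and the length-corrected values were 1.24 and 0.86. Yars, for tyrosine, was at 110.3, 109.7 and 109 CPM against 174, 177 and 177 CPM (0.68 ± 0.03, adjusted p = 2.7e-06). Gars, which encodes both the cytosolic and the mitochondrial glycine enzyme, was at 185, 172 and 172 CPM against 285, 279.6 and 284 CPM (0.68 ± 0.04, adjusted p = 6.7e-06). These 4 genes and Aars were the cytosolic synthetases that rose over 1.5-fold, and with the length correction 9 did so. Aars, for alanine, was at 164, 166 and 161 CPM against 241, 238 and 294 CPM (0.66 ± 0.08, adjusted p = 3.1e-04), with replicate 3 of Tespa1-/- above the other libraries. Without that library Aars was at 0.56, a fold under 1.5, and the length-corrected value with all libraries was 1.13. Of its exon bases, 1326 of 9282 are shared with Exosc6 on the same strand, so its reads can be divided uncertainly.

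At the other end, Iars, Vars and Wars did not rise. Iars (chromosome 13, 49682100 to 49734267), for isoleucine, was at 168, 170.4 and 189.9 CPM in Tespa1+/+ and at 164, 146 and 155 CPM in Tespa1-/- libraries, and it fell by 0.18 on the log2 scale (SE 0.06, adjusted p = 0.0355). The gap between the groups was small, 164 against 168 CPM, the call was lost without Tespa1+/+ replicate 2 (adjusted p = 0.0527), Tespa1+/+ replicate 3 (0.115), Tespa1-/- replicate 2 (0.121) or Tespa1-/- replicate 3 (0.0924), and the length-corrected value was 0.02 (adjusted p = 0.785). Vars, for valine, was at 501, 535 and 520 CPM against 495, 517 and 489.8 CPM, with overlapping groups (-0.05 ± 0.03, adjusted p = 0.23). Vars was called higher with the length correction (0.18, adjusted p = 0.00328). Wars, for tryptophan, was at 61.2, 60.5 and 63.9 CPM against 63.8, 65.4 and 64.1 CPM, also overlapping (0.06 ± 0.04, adjusted p = 0.239). Dars and Lars, next in order, both rose by 0.19, and Dars lost its call without scaling factors (0.08, adjusted p = 0.0687).

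In mammals 8 of the cytosolic synthetase genes listed here encode parts of the multisynthetase complex, held together by the scaffold proteins AIMP1, AIMP2 and EEF1E1 (also called AIMP3). Of its 11 genes, 10 rose and 1, Iars, fell, where 31.5% of all genes tested rose and 31.8% fell. The scaffold genes had larger fold changes than any of the complex's synthetases: Aimp1 0.76 ± 0.06 (adjusted p = 3.0e-05), Aimp2 0.79 ± 0.05 (1.4e-05) and Eef1e1 0.65 ± 0.05 (2.3e-05). Among the synthetases of the complex the fold changes were 0.46 for Rars, 0.39 for Kars, 0.38 for Eprs, 0.32 for Mars1, 0.31 for Qars and 0.19 for Dars and Lars. Corrected for length, Qars was at 0.62, Lars at 0.40 and Dars at 0.30. The median was 0.32 for the 8 synthetases in the complex and 0.52 for the 12 outside it (0.42 and 0.69 with the length correction). With the length correction on union exon length the order of scaffold and synthetase was not kept, since Eprs, with 18102 union exon bases, rose to 1.16. On the longest coding transcript of 4906 bases Eprs was at 0.78, against a median of 0.49 for the 3 scaffold genes. The order was thus not kept there either, and the size of the rise of Eprs depends on the length used.

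Of the 12 cytosolic synthetases listed as known ATF4 targets, 10 rose, Iars fell and Wars was not called, with a median of 0.50. Of the 8 not listed, 7 rose and Vars was not called, with a median of 0.39. By structural class, the 9 cytosolic class I enzymes had 6 rises and 1 fall (median 0.31), and the 10 class II enzymes rose in 10 of 10 (median 0.49). Eprs, which joins a class I and a class II enzyme, is in neither count. Of all genes tested, 31.5% rose and 31.8% fell. The medians describe the lists and were not tested against each other.

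The mitochondrial synthetases changed less. Their summed level was 674, 686 and 699.8 CPM in Tespa1+/+ and 729, 744 and 729.5 CPM in Tespa1-/- libraries, a ratio of 1.07. Per kilobase, Tespa1+/+ levels ran from 1.15 ± 0.212 CPM per kilobase for Wars2 to 26.2 ± 1.87 for Cars2 (SD, n = 3). The 6 that rose were Yars2, Cars2, Rars2, Sars2, Tars2 and Iars2, with log2 fold changes from 0.13 to 0.45. The length-corrected values of Iars2 and Tars2 were higher, at 0.58 and 0.53. Iars2 shares 24.2% of its exon length with other genes, mainly Rab3gap2 on the opposite strand, and lost its call with DESeq2 (0.12, adjusted p = 0.0895). Without scaling factors Iars2 (0.03) and Tars2 (0.09) were not called, and with the correction on the longest coding transcript Rars2 (0.17) and Sars2 (0.15) were not.

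Yars2, for tyrosine, was at 28.8, 28.3 and 33.9 CPM in Tespa1+/+ and at 40.4, 45.8 and 37.8 CPM in Tespa1-/- libraries (0.45 ± 0.10, adjusted p = 0.00567). Cars2, for cysteine, stood at 52.8, 45.9 and 50.9 CPM against 63.4, 69 and 67.5 CPM (0.42 ± 0.07, adjusted p = 0.00104). Rars2, for arginine, was at 28.4, 25.2 and 27.7 CPM against 33.9, 31.7 and 34.4 CPM (0.30 ± 0.07, adjusted p = 0.00694). In each of these the groups did not overlap, and the length-corrected values were 0.42, 0.78 and 0.22.

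Lars2 and Mars2 fell, and both are long gene models, of 11089 and 11294 union exon bases. Lars2 (chromosome 9, 123366927 to 123462666), for leucine, was at 38.2, 40.1 and 44.7 CPM against 30.8, 33.4 and 30.6 CPM, a fall of 0.38 ± 0.08 on the log2 scale (adjusted p = 0.0037). Mars2 (chromosome 1, 55237177 to 55248470), for methionine, was at 42.2, 40.3 and 40.8 CPM against 33.2, 30.9 and 31.9 CPM (-0.36 ± 0.05, adjusted p = 7.9e-04). The groups did not overlap in either gene. With the length correction both values were positive, at 0.18 (adjusted p = 0.0804) for Lars2 and 0.20 (adjusted p = 0.0118) for Mars2, so the direction of these falls depends on the correction. On the length implied by the deposited FPKM, Mars2 was at -0.02 and Lars2 at 0.11, and on the longest coding transcript Mars2 was at 0.54 and Lars2 at -0.12 (adjusted p = 0.201).

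Ears2, for glutamate, had the next lowest value (-0.23 ± 0.13, adjusted p = 0.171), with groups that overlapped at 16.5, 19.4 and 15.7 CPM against 13.4, 17.4 and 13.4 CPM, and its length-corrected value was -0.04. Fars2 and Nars2 were not called (0.12 and 0.22) but were called higher with the length correction (0.37 and 0.56), though on the longest coding transcript Fars2 was not (0.05, adjusted p = 0.575). Single libraries decided some of these values: without Tespa1-/- replicate 2, Ears2 was called lower (-0.36, adjusted p = 0.0392), and without Tespa1+/+ replicate 3, Nars2 was called higher (0.32, adjusted p = 0.037). Aars2, Hars2, Pars2, Vars2 and Wars2 lay between -0.12 and 0.01 and were not called. Pars2 and Wars2 were the lowest in level, with SEs of 0.40 and 0.25, and their libraries spread within a group, from 2.31 to 5.29 CPM for Pars2 in Tespa1+/+. Of the 4 other genes that charge or modify mitochondrial tRNA (Gatb, Gatc, Qrsl1 and Mtfmt), none was called by edgeR at an adjusted p of 0.05, with values from 0 to 0.21, and 2 were called higher with the length correction.

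Cytosolic and mitochondrial enzymes for the same amino acid were set side by side. For 17 amino acids there were 18 pairs, since phenylalanine has the 2 cytosolic subunits Farsa and Farsb, and Eprs pairs with both Ears2 and Pars2. The cytosolic value was the higher in 16 of the 18 pairs, with a median difference of 0.32 on the log2 scale, in 15 of 18 with the length correction (median 0.22) and in 13 of 18, with the mitochondrial value higher in 4, on the longest coding transcript (median 0.30). Isoleucine was 1 of the 2 exceptions without correction (Iars -0.18, Iars2 0.13). The widest gap without correction was that of alanine (Aars 0.66, Aars2 -0.12), and with the length correction the differences of Eprs from Pars2 (1.23) and from Ears2 exceeded that of alanine (1.10). Pairs share libraries and some share a gene, so no test was made over them.

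**Figure D4:**
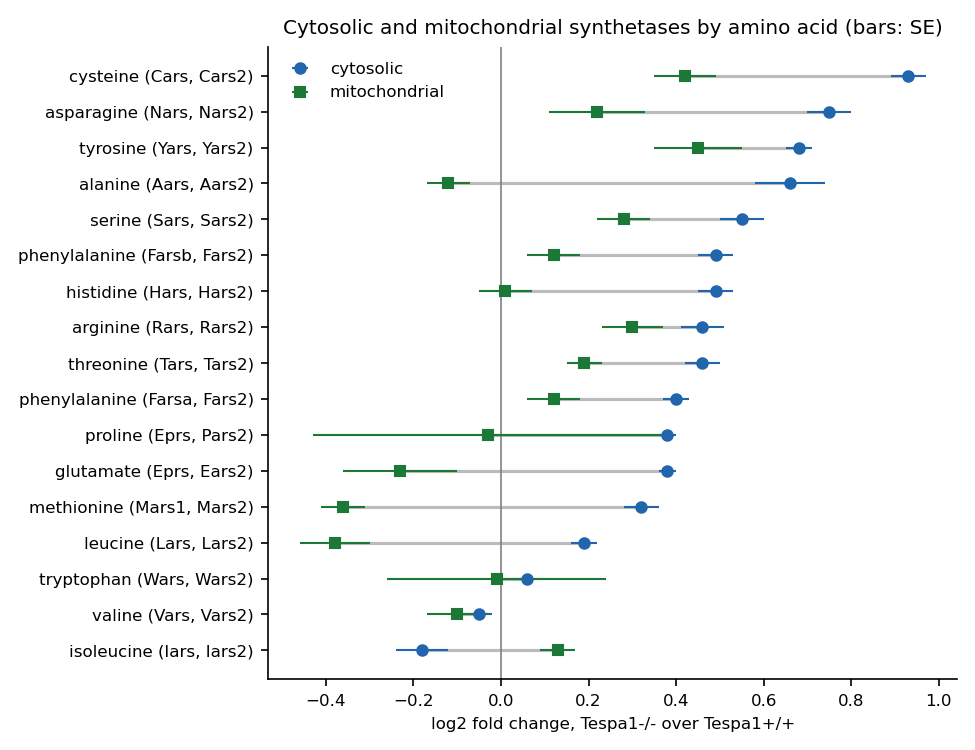
Log2 fold change in Tespa1-/- over Tespa1+/+ LSKs (x axis) of the cytosolic (circles) and mitochondrial (squares) synthetase for each amino acid, joined by a line, with SE bars, for 17 of the 18 pairs. The circle lies to the right of the square in 16 of the 17 pairs drawn, and isoleucine is the exception among them.

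The rest of the pathway was then counted by list. Of 14 genes of the eIF2alpha pathway, 6 rose and 6 fell, where 31.5% of all genes rose and 31.8% fell, so the counts alone do not set this list apart. The rises were eIF2alpha itself (Eif2s1, 0.24) and all 5 subunits of its exchange factor eIF2B, from 0.41 for Eif2b5 to 0.68 ± 0.07 for Eif2b4 (adjusted p = 1.8e-04). The falls included 2 of the 4 eIF2alpha kinases: Eif2ak4 (GCN2, which senses uncharged tRNA) went from 70.3 ± 2.41 to 43.3 ± 1.28 CPM (SD, n = 3; -0.70 ± 0.05, adjusted p = 1.8e-05) and Eif2ak2 (PKR, activated by double-stranded RNA) was at -0.67 ± 0.04 (adjusted p = 8.1e-06). Gcn1, the activator of GCN2, was at -0.90 and its inhibitor Impact at -0.66. Ppp1r15a, which recruits the phosphatase that reverses the pathway and is itself induced by it, was at -0.86 ± 0.18 (adjusted p = 0.00389). These 5 genes were called lower also with the length correction, Eif2ak4 at -0.33 and Gcn1 at -0.13, and Eif2ak1 and Eif2ak3 were called higher.

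Of 22 further ATF4 targets and partners that were tested, 16 rose and 5 fell, and 10 of the rises were over 1.5-fold. Of all genes tested, 31.5% rose, 31.8% fell and 14.0% rose over 1.5-fold. The partner Atf5, also translated under eIF2alpha phosphorylation, went from 17.7 ± 0.756 to 60.2 ± 2.60 CPM (SD, n = 3; log2 1.77 ± 0.06, adjusted p = 1.4e-06). Nupr1, a stress-induced chromatin protein, was at 1.86 and the glycine transporter Slc6a9 at 1.86. The cystine transporter Slc7a11 rose by 1.60, and the alanine transaminase Gpt2 by 1.05. The translation repressor Eif4ebp1 was at 0.88, the AP-1 family member Jdp2 at 0.92, the neutral amino acid transporter Slc1a4 at 1.08 and Cth, which makes cysteine from cystathionine, at 1.22. Herpud1, a gene of endoplasmic reticulum protein degradation, went from 110.2 ± 4.43 to 221 ± 15.9 CPM (adjusted p = 9.4e-06). Atf3, an early target of ATF4 and of other stress signals, moved the other way, from 172 ± 19.3 to 102 ± 1.49 CPM (-0.76 ± 0.08, adjusted p = 1.3e-04), and it was the 1 gene of the list that was lower with the length correction (-0.91). The other 4 falls, Slc38a2, Slc7a1, Vldlr and Xpot, did not stand with the length correction, where Slc7a1 and Xpot were called higher.

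Among 13 tested genes of serine, folate and proline metabolism outside the members, 8 rose and 2 fell, against 31.5% and 31.8% of all genes. Only 1 rise and 1 fall were over 1.5-fold, where 14.0% of all genes rose and 19.2% fell by that much. Aldh1l2, a mitochondrial folate enzyme, had the highest fold change of all lists of the pathway, from 0.154 ± 0.0545 to 1.78 ± 0.384 CPM (log2 3.60 ± 0.35, adjusted p = 9.2e-05), at a low level. Its cytosolic counterpart Aldh1l1 was at -0.25 (adjusted p = 0.0348) and Mthfd2l, the paralog of Mthfd2, at -0.59 (adjusted p = 0.0179), and both calls were lost with the length correction.

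**Figure D5:**
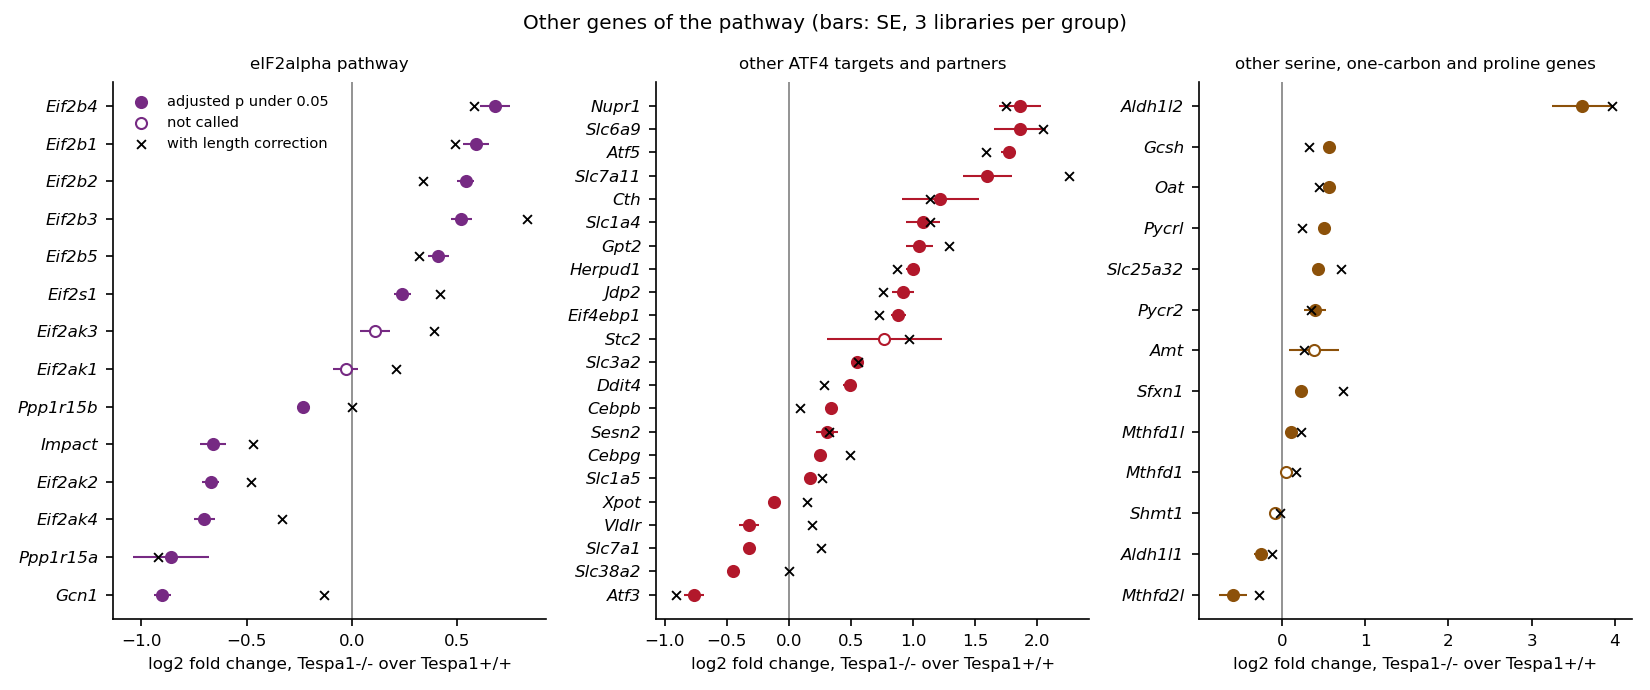
Log2 fold change (x axis) of the tested genes of the eIF2alpha pathway, of other ATF4 targets and partners and of other serine, folate and proline genes, with the same symbols as for the members (filled: adjusted p under 0.05, bars: SE, crosses: length-corrected). The eIF2B subunits lie to the right and the kinases Eif2ak2 and Eif2ak4 to the left of 0, and Aldh1l2 is at 3.60.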

How the data were processed

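Strand-specific, paired-end Illumina libraries were prepared from poly-A RNA of 6 LSK samples. The authors deposited whole-number counts per gene, not normalised, and FPKM values (counts scaled by gene length and library total). The submitters' processing notes name CASAVA 1.8, HISAT2, StringTie, edgeR and GRCm38; whether counting used strand is not given in the sources used here. Coordinates of all members equal those of GENCODE M21 (GRCm38).

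Counts were filtered with filterByExpr, scaled with TMM and tested with edgeR 4.0.16 (quasi-likelihood, genotype only, R 4.3.3), with Benjamini-Hochberg adjustment over 15332 genes. CPM values use TMM. The length correction used an offset from a loess fit (span 0.5) on union exon length. Alternatives used DESeq2 1.42.0 and limma 3.58.1. In simulated data, edgeR recovered 94% of 1.5-fold and 100% of 2-fold changes among 15245 genes, and 12 unchanged genes were called. The simulations gave replicates less spread than the common value fitted to the data (coefficient of variation 0.11). They also changed far fewer genes than were called here, so they do not give the recovery or the false calls in these data. Where a trend with length was simulated among 15506 genes, 7483 unchanged genes were called without the correction and 11 with it. That trend was built on the same union exon length that the correction used. It therefore cannot show which length suits these data.

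Members and lists were chosen with earlier results of these data known. Named genes were Atf4 and its targets, the 4 highest and 4 lowest cytosolic and 3 highest and 3 lowest mitochondrial synthetases, genes of the multisynthetase complex, members whose call or direction changed with the length correction, list genes called with a fold over 1.5, and, added later, genes with the promoter motif, Aldh1l1, Slc38a2, Slc7a1, Vldlr, Xpot, Mthfd2l, Eif2s1, Eif2b2 to Eif2b5 and genes named to complete a count. Counting error is small for abundant genes, and because no molecular identifiers were used it is a lower limit of the error. The values of 1 mitochondrial synthetase and 1 promoter site are not reported here; both are included in the counts.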

Additional observations from a re-analysis of the deposited data

How the results depend on the processing

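The 17 rises among cytosolic synthetases and the 13 in the ATF4 group were counted again under each alternative and ranged from 15 to 19 and from 9 to 13 outside the 2 rules with a fold cutoff, and 25 of the 39 called members kept direction and call in all alternatives other than those 2 rules. Of the 3 called members that changed sign (Iars, Lars2 and Mars2), each did so with a length correction, and the other 7 sign changes were in members that were not called. The length corrections gave the most changes of sign (up to 7 of 50 members), and limma-trend without a filter and the rules with a fold cutoff the most lost calls (11, 28 and 30); the cause of the length trend was not tested. The corrections on other lengths were added after the data were seen. The labels do not give the length of the fragments, and Chac1, Trib3, Pars2 and Wars2 rest on few counts.

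With the length correction, 10 mitochondrial synthetases were higher and 0 lower, and 0 cytosolic ones were lower. The log2 fold changes became 0.02 for Iars, 0.18 for Vars, 0.03 for Aars2, 0.18 for Lars2, 0.20 for Mars2, 0.13 for Vars2 and 0.26 for Wars2. On the length implied by FPKM, 0 cytosolic and 0 mitochondrial synthetases were lower, with Vars at 0.22, Lars2 at 0.11, Pars2 at 0.07, Vars2 at 0.18 and Wars2 at 0.24. On the longest coding transcript, again 0 of either were lower, 1345 of all genes were higher with a fold over 1.5, and Iars was at 0.15, Vars at 0.24, Aars2 at 0.04, Mars2 at 0.54, Lars2 at -0.12, Pars2 at 0.07, Vars2 at 0.24 and Wars2 at 0.32.

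Without scaling factors, 2 cytosolic and 4 mitochondrial synthetases were lower, with Wars at -0.04 and Hars2 at -0.09. With at least 10 counts in every sample Hars2 was at -0.01. With limma-trend on log2(FPKM + 1), 1070 genes were higher and 1626 lower with a fold over 1.5, 2 cytosolic synthetases were lower, and Wars was at -0.04 and Hars2 at -0.08. With a pseudocount of 0.1, 1365 genes were higher, 2 cytosolic synthetases were lower, and Wars was at -0.04 and Hars2 at -0.09. With no filter, 1090 genes were higher and 1716 lower, and 1 mitochondrial synthetase, 15 cytosolic synthetases and 9 genes of the ATF4 group were higher. Calls were lost there by Atf4, Ddit3, Aldh18a1, Slc7a5, Dars and Qars, and by the mitochondrial synthetases Iars2, Rars2, Sars2, Tars2 and Yars2. In the same fit 2 cytosolic synthetases were lower, and Wars was at -0.04 and Hars2 at -0.08.

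Tested against a fold of 1.5 (glmTreat), 1020 genes were higher and 1807 lower, with 4 cytosolic, 0 mitochondrial and 5 ATF4-group genes higher and 0 synthetases lower. With an unadjusted p under 0.05 and a fold over 1.5, the cutoff of the study, 5 cytosolic, 0 mitochondrial and 6 ATF4-group genes were higher and 0 synthetases lower. At an adjusted p under 0.01, 0 cytosolic synthetases were lower.

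Leaving out each library in turn gave 17 higher and 0 to 1 lower cytosolic synthetases, 6 to 7 higher and 2 to 3 lower mitochondrial ones and 13 higher genes of the ATF4 group, with 4490 to 4664 genes higher and 4374 to 4590 lower (2078 to 2246 and 2716 to 2885 with a fold over 1.5). The sign changed for Hars2, Pars2 and Wars2 (ranges -0.01 to 0.05, -0.48 to 0.23 and -0.29 to 0.21), and Iars lost its call without 4 of the 6 libraries.

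Deviations of same-numbered libraries were only weakly correlated (0.046, 0.011 and 0.06), though above those of the other combinations (-0.048 to 0.004). With 3 libraries per group, such values cannot show whether the numbers pair the samples. The replicate block gave 17 cytosolic, 7 mitochondrial and 13 ATF4-group genes higher and 1, 3 and 0 lower, with Pars2 at 0.01. The replicate block with the length correction gave 10 mitochondrial synthetases higher, 0 lower, 0 cytosolic ones lower, and 11 ATF4-group genes higher, Atf4 not among them (0.44, adjusted p = 0.0517), with Iars at 0.02, Vars at 0.18, Aars2 at 0.03, Lars2 at 0.19, Mars2 at 0.20, Vars2 at 0.13 and Wars2 at 0.22.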

Other observations

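The promoter motif was also counted over all genes tested that had a RefSeq window, members included. Of 9978 such genes, 271 (2.72%) held TGATGNAA, and 28.4% of these rose in Tespa1-/- LSKs, against 30.0% of the 9707 without it. The median log2 fold changes were -0.09 and -0.04. Of the 77 genes with the form TGATGCAA, 39.0% rose, against 29.9% of the 9901 without it, with medians of 0.07 and -0.04. These shares describe the windows and were not tested.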
